A study of Mus musculus with 16 samples.

Results

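Of 86616 merged accessible regions in mouse prostate organoids, 514 (0.593%) carried a called peak in all 4 libraries of SPOP-mutant organoids kept in ethanol and in none of the other 12 libraries. A merged region is the union of peaks that share at least 1 base on chromosomes 1 to 19, X and Y, taken over all 16 peak lists. The members were chosen by these calls, so their presence in that group and absence elsewhere is a description and carries no test. The organoids were of 2 genotypes, Control and SPOPmut, and every library of both carried the label sgNT. Each genotype was treated for 24 h with 10 nM dihydrotestosterone (DHT), an androgen, or with its solvent ethanol (EtOH), in medium without mEGF, and each of the 4 combinations had 4 libraries. The labels used here give neither the SPOP allele nor the age or number of the animals. Nor do they say whether a group's libraries are separate cultures, so p-values measure only the spread between libraries, which may be technical.

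SPOP is the substrate adaptor of a cullin-3 ubiquitin ligase, and it is recurrently mutated in human prostate cancer, where its substrates include coactivators of steroid receptors. Steroid receptors are ligand-activated transcription factors that bind mostly at enhancers far from genes, together with pioneer factors such as FOXA1. ATAC-seq uses a transposase that cuts accessible DNA, and a peak marks a place where cuts pile up above a caller's threshold. A region with no called peak is below that threshold in that library, and is not shown to be closed. In these bulk libraries, more cells with an accessible site and more accessibility per cell cannot be told apart.

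Few members lay at annotated transcription starts. RefSeq start windows (GRCm38.p6, the build with the coordinates of mm10), which run from 250 bases before to 50 bases after a start, overlapped 8 of the 514 members (1.56%), in 9 windows of 8 genes, and 11.99% of all merged regions. The share was 1.33% of the regions called only in Control_EtOH, 2.997% of those only in Control_DHT and 1.199% of those only in SPOPmut_DHT. In 4 of these windows the peak summits of all 4 libraries fell within the 250 bases before the start, so those bases are shown, on the gene's strand. They were chosen after the values were seen. Capitals mark every match, on either strand, to AGAACA (the core hexamer of the androgen response element), to the GATA factor motif AGATAA, to the RUNX factor motif TGTGGT and to the AP-1 motif TGANTCA. No matches overlapped in these windows, and the forkhead, p63, TEAD, ETS, grainyhead, NFI, C/EBP, KLF and CTCF motifs that were also searched had no match there.
Lyrm1, chr7:119899861-119900110, plus strand: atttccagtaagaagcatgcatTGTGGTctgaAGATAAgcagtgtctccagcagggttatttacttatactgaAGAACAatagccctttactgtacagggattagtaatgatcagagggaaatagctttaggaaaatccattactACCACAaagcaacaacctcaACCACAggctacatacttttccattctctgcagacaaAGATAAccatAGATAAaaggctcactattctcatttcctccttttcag
Gm33906, chr14:123043032-123043281, plus strand: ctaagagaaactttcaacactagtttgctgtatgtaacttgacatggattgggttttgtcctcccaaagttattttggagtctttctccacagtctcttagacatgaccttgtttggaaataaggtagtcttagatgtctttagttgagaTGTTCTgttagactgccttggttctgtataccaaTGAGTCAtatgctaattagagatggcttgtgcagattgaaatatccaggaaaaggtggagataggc
Gm32733, chr15:97107762-97108011, minus strand: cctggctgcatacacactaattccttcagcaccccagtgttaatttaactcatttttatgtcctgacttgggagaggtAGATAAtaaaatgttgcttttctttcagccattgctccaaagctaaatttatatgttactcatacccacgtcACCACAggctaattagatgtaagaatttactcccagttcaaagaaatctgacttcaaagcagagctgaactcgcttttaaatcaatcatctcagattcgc
Slc7a15, chr12:8599067-8599316, minus strand: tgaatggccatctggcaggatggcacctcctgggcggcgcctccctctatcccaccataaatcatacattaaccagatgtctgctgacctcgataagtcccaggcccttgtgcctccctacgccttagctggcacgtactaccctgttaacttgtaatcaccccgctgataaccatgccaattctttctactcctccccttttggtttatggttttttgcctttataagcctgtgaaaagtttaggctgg
The Lyrm1 window lay wholly inside the member chr7:119899777-119900175, with summits at bases 61 to 85 of the sequence and the AGAACA match at bases 74 to 79. This start is inside the gene and not at its end: the member lay 3447 bp from the nearest end of a protein-coding gene. Lyrm1 encodes a small protein of the LYR motif family. The window of the noncoding gene Gm33906 had summits at bases 131 to 203, an AGAACA match at bases 151 to 156 and an AP-1 motif at bases 185 to 191. The window of the noncoding gene Gm32733 had summits at bases 29 to 42 and no AGAACA match. The window of Slc7a15, a gene of an amino acid transporter family, had summits at bases 1, 104, 14 and 22 and no match to any motif searched. Over all promoter windows, 16.1% held AGAACA, 9.99% held AGATAA, 14.05% held TGTGGT and 6.75% held TGANTCA. The full palindromic androgen response element was in none of the 9 member windows and in 0.00913% of all windows. These matches are descriptions of the letters and not binding sites.

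The 16 lists held 57245 to 69644 peaks, and the SPOPmut_EtOH lists held 65106, 60661, 67005 and 60819. Peak lists without read counts were analysed here, so the read depth is unknown. A peak lay within 1 kb of an end of 8 of 12 epithelial marker genes in all 16 libraries, and of none of Ptprc, Cd3e, Cdh5, Kdr, Col3a1, Pdgfra, Des and Chga in any library. Peaks at Col1a1 and Pecam1 were called in all 16, at Syp in 15, at the macrophage marker Csf1r in 3 Control_EtOH and 1 SPOPmut_EtOH libraries, and at Myh11 in 1 Control_EtOH and 2 Control_DHT libraries. The epithelial markers Trp63 and Pbsn had none in any library.

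The members are the smaller part of the regions that SPOPmut_EtOH called and Control_EtOH did not. Of 3889 regions called in 4 SPOPmut_EtOH and 0 Control_EtOH libraries, 2393 (61.5%) were also called in all 4 SPOPmut_DHT libraries and 519 (13.3%) in none. Of the 1587 regions called in 4 SPOPmut_EtOH and 0 SPOPmut_DHT libraries, 723 (45.6%) were called in all 4 Control_EtOH libraries and 519 (32.7%) in none. These 519 became the 514 members once 5 regions with a single Control_DHT call were set aside. By the same rule 528 regions (0.61%) were called only in Control_EtOH, 367 (0.424%) only in Control_DHT and 1418 (1.64%) only in SPOPmut_DHT.

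**Figure D1:**
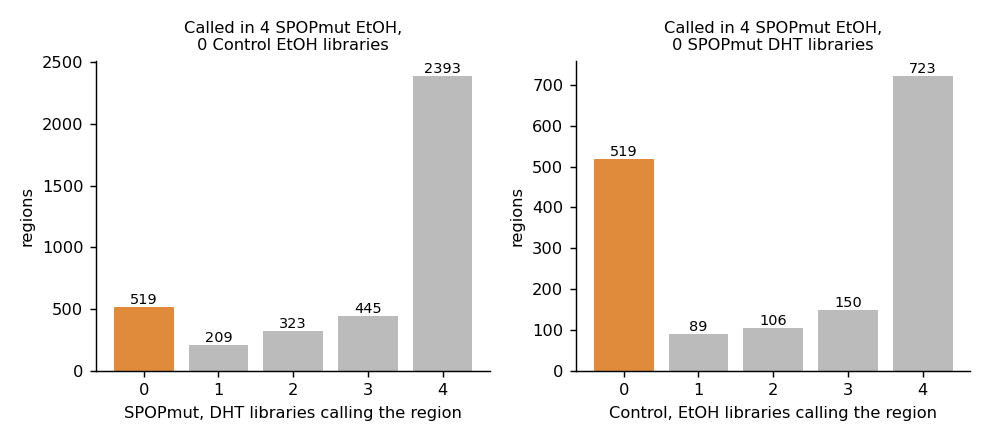
Regions called in all 4 SPOPmut_EtOH libraries and no Control_EtOH library (3889), or no SPOPmut_DHT library (1587), by the number of libraries of another group that called them (horizontal axis, 0 to 4); bars count merged regions. Most regions of the first set were called in 4 SPOPmut_DHT libraries (2393), and 519 regions of either set had no call in the group counted.

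The edge of the set was populated on both sides. A further 468 regions were called in 3 of the 4 SPOPmut_EtOH libraries and in no other library. The missing call was in library 4 for 198, in library 2 for 190, in library 1 for 52 and in library 3 for 28, and libraries 2 and 4 had the shortest lists of the group. Another 294 regions were called in all 4 and in 1 library of another group. That library was SPOPmut_DHT for 203, of which 123 came from its replicate 4, the longest of the 16 lists. It was Control_EtOH for 86 and Control_DHT for 5.

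Member peaks were weak for their lists. The median −log10 p of the members was 3.76, 3.62, 3.85 and 3.67 in SPOPmut_EtOH libraries 1 to 4, beside 5.11, 4.97, 5.11 and 4.96 over all peaks of those lists. In these libraries 99.8%, 100%, 99.6% and 100% of the members were below the list median. Ranked within each list, the median member stood at percentile 15.3, 10.6, 17.97 and 12.3, and the median signal was 343, 289, 373 and 303 against 799, 784, 804 and 778. Over the 4 libraries the median percentile was 14.6, with a range over members of 0.363 to 51.9. The regions missed by 1 library stood at 9.02, and those with 1 further call at 16.05 in SPOPmut_EtOH and at 5.995 in the other list. Regions called only in Control_EtOH, only in Control_DHT and only in SPOPmut_DHT had medians of 16.3, 19.9 and 23.5 in their own lists, so low ranks were common to all 4 sets chosen in this way.

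**Figure D2:**
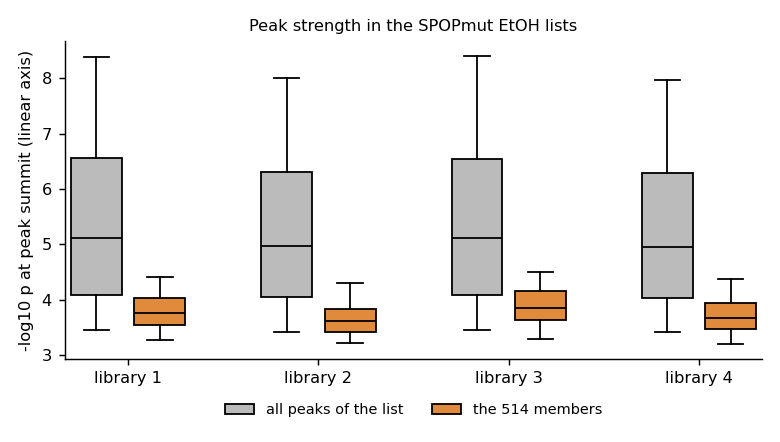
Peak −log10 p (vertical axis) in each of the 4 SPOPmut_EtOH libraries, for all peaks of the list and for the members. Boxes span the quartiles with the median as a line, and whiskers reach from the 5th to the 95th percentile. The members' medians of 3.62 to 3.85 sit below the list medians of 4.96 to 5.11 in every library.

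Membership moved with the calling threshold. With only peaks of signal 300 or more kept in every list, 460 regions met the rule and 155 of them shared bases with a member. With every list cut to the length of the shortest, 502 met it and 202 of those were shared. In 66 members the signal was at least 400 in all 4 SPOPmut_EtOH lists, and in 359 it was under 300 in at least 1. Of those 66, 29 (43.9%) lay inside a gene, 1 within 1 kb of a gene end, 10 on chromosome 15 and 6 on chromosome 2.

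The calls of a member coincided between libraries. In 512 of 514 members each library had a single peak, and in 512 the 4 peaks shared bases. The median spread of the 4 summits was 50 bp, and it exceeded 300 bp in 13 members. Over the 514 members, Spearman's rho of −log10 p between pairs of SPOPmut_EtOH libraries was 0.534 to 0.682, which describes members of the same libraries. The merged regions were narrow, with a median width of 442 bp (193 to 1371 bp) against 622 bp for all regions and 1037 bp for regions called in all 16 libraries. Regions called only in Control_EtOH, Control_DHT or SPOPmut_DHT had medians of 419.5, 460 and 493 bp.

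The members were mostly distal. A total of 26 (5.06%) lay within 1 kb of an end of a protein-coding gene, compared with 15.9% of all regions and 26.9% of regions called in all 16 libraries. A further 222 (43.2%) lay inside genes and 266 (51.8%) outside, beside 41.8% and 42.3% of all regions. No protein-coding gene was within 100 kb of 72 members (14.01%), against 9.05% of all regions. The median distance to a gene end was 30804 bp for members and 15208 bp for all regions. The sets chosen in the same way in the other groups were distal too, with 3.22% (Control_EtOH), 4.09% (Control_DHT) and 3.95% (SPOPmut_DHT) at gene ends.

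Chromosomes 2 and 15 held more of the members than of all regions. Chromosome 2 had 64 members (12.5%, against 7.90% of all regions, a ratio of 1.58), and chromosome 15 had 43 (8.37% against 4.67%, a ratio of 1.79). Chromosomes 1, 12 and X had ratios of 1.49, 1.38 and 1.40, and chromosomes 17, 6 and 8 had 0.49, 0.55 and 0.58. Regions called only in SPOPmut_DHT had ratios of 1.51 on chromosome 2 and 1.10 on chromosome 15. Those called only in Control_EtOH had 0.62 and 0.41. The whole lists differed in the same way: chromosome 2 took 8.42 to 8.48% of the called regions in SPOPmut_EtOH and 6.96 to 7.04% in Control_EtOH, and chromosome 15 took 5.03 to 5.09% and 4.24 to 4.30%. The part of these list-wide shares in the members' counts was not tested.

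**Figure D3:**
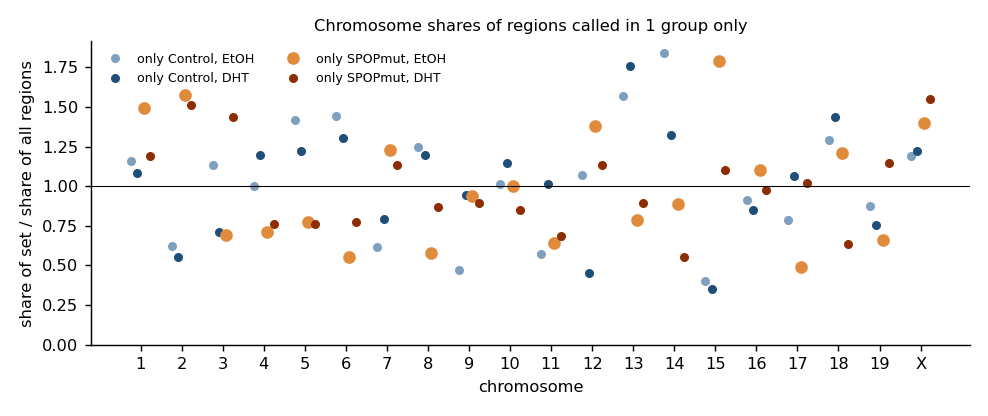
Share of a set's regions on each chromosome divided by the share of all merged regions there (vertical axis, ratio), for regions called only in one group. Members (only SPOPmut_EtOH) reached 1.58 on chromosome 2 and 1.79 on chromosome 15, where regions called only in Control_EtOH had 0.62 and 0.41.

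Members lay among regions that other libraries also called. The median gap to the nearest other region was 4000.5 bp, and 85 members (16.5%) had one within 1 kb. For 207 members (40.3%) the nearest region was called in all 16 libraries, and 408 (79.4%) had such a region within 50 kb. The first share was 35.6% for regions only in Control_EtOH, 36.8% for Control_DHT and 41.8% for SPOPmut_DHT. The second was 69.1%, 73.3% and 86.3%. The mean number of other called regions within 50 kb of a member was 5.39 to 5.89 in the SPOPmut_EtOH libraries, 4.98 to 5.75 in SPOPmut_DHT, 4.31 to 4.94 in Control_EtOH and 4.19 to 4.59 in Control_DHT. Around regions only in SPOPmut_DHT the group means were 5.61 in SPOPmut_EtOH, 5.93 in SPOPmut_DHT, 4.95 in Control_EtOH and 5.03 in Control_DHT. In the same order they were 3.63, 3.54, 4.11 and 3.85 around regions only in Control_EtOH. Around regions only in Control_DHT they were 4.73, 4.95, 5.47 and 5.52. With members linked over gaps of up to 100 kb, 84 (16.3%) fell in 41 clusters. Only the clusters at Gm973 and Tmtc4 had 3 members.

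Of the 8 members with the highest median percentile, 3 lay inside genes. The first, chr15:97157836-97158315, had −log10 p of 5.37, 4.92, 5.34 and 4.93 in libraries 1 to 4. It stood at percentile 51.9, the only member with a median percentile above 50. Its nearest gene, 85999 bp away, was Amigo2, a cell adhesion molecule. A second member, chr15:97107705-97108280, lay in the same stretch over the Gm32733 start shown above. Excluding the 2 members, this stretch, which reaches 60 kb to each side of the first, had 8, 7, 7 and 7 called regions in SPOPmut_EtOH, 7, 8, 8 and 10 in SPOPmut_DHT, 5, 4, 5 and 5 in Control_EtOH and 5 in every Control_DHT library.

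The member chr3:38278576-38279180 had no gene within 100 kb and −log10 p of 4.97, 4.92, 5.01 and 4.81. The member chr5:126490378-126491144, also far from genes, had 4.97, 4.30, 5.41 and 4.45 and, at 1025, the highest median signal of all members. Near Xcl1, a lymphocyte chemokine, chr1:164992948-164993776 had 4.81, 4.32, 4.85 and 4.599 at 57840 bp from the gene. These 3 were called in every SPOPmut_EtOH library at above 4, where the list medians were near 5.
Inside Ptk2, the focal adhesion kinase gene, chr15:73291571-73292228 had −log10 p of 4.30, 4.66, 4.74 and 4.49. Inside St3gal3, a sialyltransferase gene, chr4:117992074-117992632 had 4.92, 4.66, 4.39 and 4.07. Inside Rab3gap2, which encodes a subunit of a Rab regulatory complex, chr1:185231037-185231498 had 4.56, 4.23, 4.56 and 4.49. The lowest of the 4 values was in library 4 for St3gal3, in library 1 for Ptk2 and in library 2 for Rab3gap2.
Near Marcks, which encodes a membrane-bound substrate of protein kinase C, chr10:37204276-37204999 had −log10 p of 4.998, 4.44, 4.93 and 4.49, and a second member lay at chr10:37197413-37197796. A region just beyond the first, chr10:37206952-37207337, was called in 4 Control_EtOH, 4 Control_DHT, 4 SPOPmut_EtOH and 0 SPOPmut_DHT libraries.

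Genes were assigned to regions as the nearest protein-coding gene within 100 kb. This gave 442 members to 404 genes, which are 2.54% of the 15928 genes with a region, and 33 genes held at least 2 members. Lrmda, whose human counterpart is linked to melanocyte differentiation, held 5. Gm973 held 3 and Syne1, which encodes the nuclear envelope protein nesprin-1, also held 3.

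For the genes that held members, the other regions assigned to the same gene were counted in every library. These regions were not used by the rule, but the libraries and the contrasts are the ones that chose the members. The counts over member genes are therefore set beside the share for all genes as a description, and nothing about the members is read from them. Each gene was tested by an exact permutation test, two-sided, that exchanged libraries between genotypes within a treatment, or between treatments within a genotype. The 4900 arrangements allow no p below 0.000408163, and p-values were adjusted over 11186 genes by the Benjamini-Hochberg method. Of the 404 genes, 374 could be tested.

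SPOPmut libraries called more of the other regions than Control libraries at 157 of the 374 genes (42.0%), where the share of all tested genes was 19%, and fewer at 21 (5.61%), where it was 12.2%. The median difference was 0.75 regions for the member genes and 0 for all. After each library's call rate on the chromosome was subtracted, 154 were higher (41.2%; all genes 23.8%) and 59 lower (15.8%; all genes 23.9%). Of the calls over all genes, 49.9% were then higher, against 60.9% before. DHT libraries called more of the other regions at 12 (3.21%; all genes 5.51%) and fewer at 30 (8.02%; all genes 2.81%). Member genes had a median of 8.5 other regions and a length of 65.2 kb, against 4 regions and 29.6 kb for all genes, and genes with more regions passed more often. Among genes with at least 10 other regions, 44.4% of 171 member genes were higher in SPOPmut and 29.3% of all such genes, and 12.9% were lower with DHT against 5.89%.

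No gene differed between genotypes in its DHT effect after Benjamini-Hochberg adjustment of the exact permutation p (smallest adjusted p 0.351; 0% of all genes). At an unadjusted p under 0.05, 28 of 374 member genes had a higher DHT effect in SPOPmut and 6 a lower one. Over all 11186 genes the counts were 586 and 142. The members themselves have the lower direction. On simulated data this test recovered 200 of 200 genes whose DHT effects had opposite signs and 0 of 200 whose effect was in SPOPmut only. A DHT effect of that second kind, which is the pattern of the members themselves, was thus beyond its reach.

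**Figure D4:**
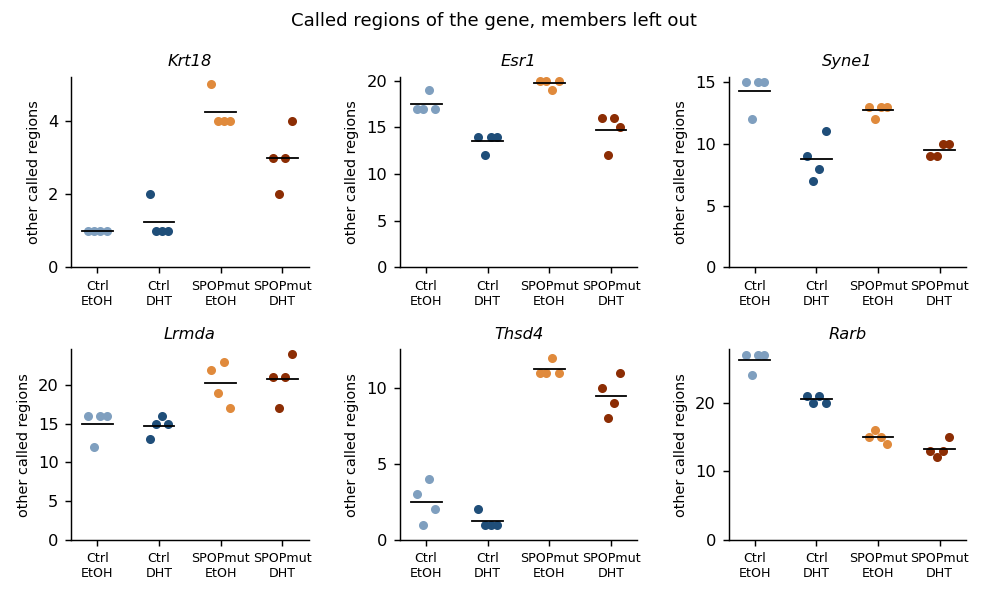
Called regions other than members at named genes that hold members, per library (points; vertical axis, number of regions), in the 4 groups, with the mean as a line. Every SPOPmut library was above every Control library at Lrmda and Thsd4 and below at Rarb, and every DHT library was below every EtOH library at Esr1 and Syne1.

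Krt18, which encodes a luminal keratin that pairs with keratin 8, held the member chr15:102028043-102029287. Its −log10 p was 3.94, 3.79, 3.72 and 3.47. The summits lay 821, 820, 798 and 819 bp downstream of the RefSeq start, so they were in the gene and not at its promoter. The peaks were 1066, 340, 347 and 1155 bp wide. Those of libraries 1 and 4 also covered the start, and the member overlapped the Krt18 start window by 223 bases. Other regions assigned to Krt18 numbered 1, 1, 1 and 1 in Control_EtOH, 2, 1, 1 and 1 in Control_DHT, 5, 4, 4 and 4 in SPOPmut_EtOH and 3, 2, 3 and 4 in SPOPmut_DHT. SPOPmut thus exceeded Control by 2.50 regions (adjusted p = 0.00595, exact permutation test with Benjamini-Hochberg adjustment), and only a Control_DHT and a SPOPmut_DHT library, both at 2, met. For DHT the difference was −0.50 (adjusted p = 0.698, same exact permutation test). In the Krt8 to Krt18 window, 6 of 15 regions were called in all 16 libraries.

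Esr1, the estrogen receptor alpha gene, and its neighbour Syne1 held 4 members in the stretch chr10:4611989-5550692. The Esr1 member chr10:4897899-4898205 was inside the gene. Its other regions numbered 17, 17, 19 and 17 in Control_EtOH, 14, 12, 14 and 14 in Control_DHT, 20, 20, 19 and 20 in SPOPmut_EtOH and 16, 12, 16 and 15 in SPOPmut_DHT. Every DHT library was below every EtOH library, by 4.50 on average (adjusted p = 0.012, exact permutation test with Benjamini-Hochberg adjustment). The genotype difference was 1.75 regions and did not pass (adjusted p = 0.0685, same exact permutation test). After subtraction of the chromosome's call rate it was 2.66 (adjusted p = 0.00471), and without Control_EtOH library 3 or SPOPmut_DHT library 2 it was 2.00 or 2.21 (adjusted p = 0.0395 or 0.00575), by the same exact permutation test.
Syne1 members lay at chr10:5083583-5083960, chr10:5116732-5117053 and chr10:5511471-5511909. Other Syne1 regions numbered 15, 12, 15 and 15 in Control_EtOH, 9, 7, 8 and 11 in Control_DHT, 13, 12, 13 and 13 in SPOPmut_EtOH and 9, 9, 10 and 10 in SPOPmut_DHT. They fell by 4.38 with DHT (adjusted p = 0.012, exact permutation test with Benjamini-Hochberg adjustment), with no overlap between treatments.

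**Figure D5:**
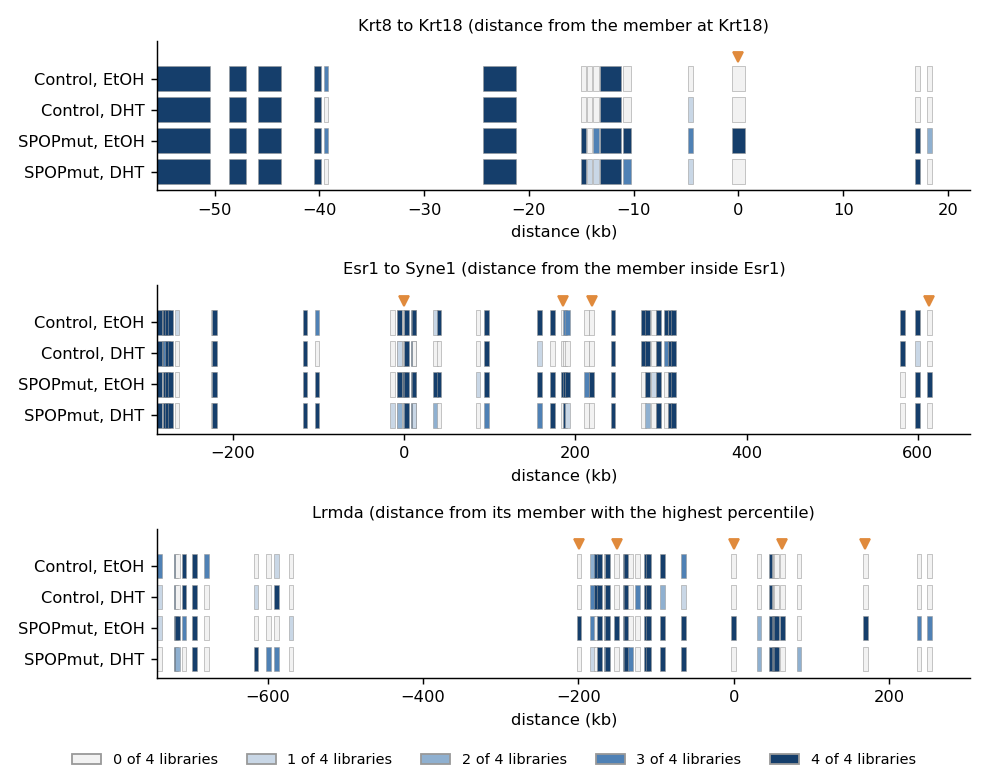
Number of libraries of each group (0 to 4, shade) that called each merged region at 3 loci with members (horizontal axis, distance in kb from a member). Triangles mark members, and narrow regions are drawn wider than they are. Members have 4 calls in SPOPmut_EtOH and 0 elsewhere, beside neighbours called in 4 libraries of several groups.

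The 5 Lrmda members lay between chr14:22560793 and chr14:22929978, inside the gene. Other Lrmda regions numbered 16, 12, 16 and 16 in Control_EtOH, 13, 15, 16 and 15 in Control_DHT, 22, 19, 23 and 17 in SPOPmut_EtOH and 21, 17, 21 and 24 in SPOPmut_DHT. Every SPOPmut library was above every Control library, by 5.63 on average (adjusted p = 0.00331, exact permutation test with Benjamini-Hochberg adjustment).
The same separation without overlap was seen at Plcb1 (phospholipase C beta 1), by 14.4 regions, at Cep128 (a centriolar protein; 2 members) by 11.4, at Macrod2 by 10.8, at Pde4d (a cyclic AMP phosphodiesterase) by 9.38, at Thsd4 by 8.50 and at Enpp2 (autotaxin; 2 members) by 4.75. All of these had an adjusted p of 0.00331 in the same exact permutation test, the smallest reached. At Thsd4 the counts were 3, 1, 4 and 2 in Control_EtOH, 2, 1, 1 and 1 in Control_DHT, 11, 11, 12 and 11 in SPOPmut_EtOH and 10, 8, 9 and 11 in SPOPmut_DHT.

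At other member genes the surrounding regions went the other way from the member for genotype or for DHT, and not always for both. Rarb, a retinoic acid receptor gene, had 27, 24, 27 and 27 other regions in Control_EtOH, 21, 20, 21 and 20 in Control_DHT, 15, 16, 15 and 14 in SPOPmut_EtOH and 13, 12, 13 and 15 in SPOPmut_DHT. It was lower in SPOPmut by 9.25 (adjusted p = 0.00331), in the exact permutation test with Benjamini-Hochberg adjustment. It was also lower with DHT by 3.75 (adjusted p = 0.0296, same exact permutation test), which is the member's own direction. The genotype difference was negative and passed also at Mast4 (−6.75), Rap1gap2 (−6.13), Kirrel3 (−5.38) and Stard13 (−4.50). Adjusted p was from 0.00331 to 0.0119 in the exact permutation tests. With DHT, Mast4 fell by 4.50 (adjusted p = 0.012) and Stard13 by 3.50 (adjusted p = 0.0264, exact permutation test), again in the member's direction. With lists of equal length the Stard13 difference was −2.625 and did not pass (adjusted p = 0.114, same exact permutation test). Rap1gap2 and Kirrel3 did not pass for DHT. DHT libraries called more other regions at Bank1 (5.25), Ets2 (2.50), Phactr2 (2.13) and Phka2 (2.13), with adjusted p from 0.012 to 0.0491 in the exact permutation tests. With regions assigned only within 25 kb of the gene, Ets2 (0.63, adjusted p = 0.436) and Phka2 (adjusted p = 0.0525) did not pass the exact permutation test. The call at Phka2 was also lost without Control_EtOH library 2, Control_DHT library 4, or SPOPmut_EtOH library 1 or 2 (adjusted p from 0.0563 to 0.0710). After subtraction of the chromosome's call rate Ets2 did not pass either (2.18, adjusted p = 0.0518, exact permutation test). For genotype, Phka2 was higher in SPOPmut by 5.88 (adjusted p = 0.00331, exact permutation test), as its member was. Ets2 was lower in SPOPmut by 2.00 (adjusted p = 0.0182, exact permutation test), and Bank1 and Phactr2 did not pass for genotype.

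Other genes with several members were less uniform. Sema3d, a secreted guidance semaphorin, had 2 members within 5 kb of each other, and its other regions fell by 1.63 with DHT (adjusted p = 0.0296, exact permutation test with Benjamini-Hochberg adjustment; 0.0895 with lists of equal length). Cubn, an endocytic receptor gene, had 2 members and fell by 1.13 with DHT (adjusted p = 0.0296, same exact permutation test). Gm973 and Marcks had mean genotype differences of 0 in their other regions. Usp17la belongs to a multicopy family, so its 2 members near gene ends are uncertain.

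Besides Krt18, the members within 1 kb of a gene end with the highest percentiles were at Usp17la (2 members), Tecpr2, Cep97, Swap70, Bfsp1, Isg20l2, Grn and Gtf2f1. At Grn (progranulin), Gtf2f1 (a general transcription factor subunit) and Swap70 the other regions, 3, 2 and 5, were called in all 16 libraries. At Isg20l2 they numbered 2 in every Control and 3 in every SPOPmut library (adjusted p = 0.00331, exact permutation test with Benjamini-Hochberg adjustment).

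Members at genes of the pathway and cell type lists were few. Of 40 androgen response genes with a region, 4 held a member (Ank, Ell2, Ndrg1 and Pmepa1). At Ank, a transporter gene, the other regions were more in SPOPmut by 7.88 (adjusted p = 0.00331), and at Ell2, an elongation factor gene, fewer by 3.63 (adjusted p = 0.0103), in the exact permutation test. Within 25 kb the Ell2 difference was −1.63 (adjusted p = 0.0942, exact permutation test). At Ndrg1, a stress response gene, the genotype difference was 2.13 (adjusted p = 0.00795, exact permutation test), and it was 0.0536 (adjusted p = 0.904) after subtraction of the chromosome's call rate. With DHT the other Ndrg1 regions fell by 1.88 (adjusted p = 0.0479, exact permutation test). That call was kept in 11 of 16 runs with a library left out. At Pmepa1 neither test passed.
Of 15 luminal genes 1 held a member (Krt18), of 17 basal genes 1 (Cd44), of 14 stromal and smooth muscle genes 2 (Acta2 and Zeb2), of 24 genes for steroid receptors and partners 1 (Esr1), of 17 interferon and inflammation genes 1 (Il6), and of 27 Wnt, Notch and Hedgehog genes 1 (Wnt4). No gene held a member among the 19 genes for SPOP and its substrates, the 24 AP-1 and ERK feedback genes, the 15 EGF family genes, the 23 TGF-beta and BMP genes, the 19 cell cycle genes or the 11 proximal luminal genes. The lists of 7 secretory, 8 urothelial, 9 neuroendocrine, 8 endothelial, 6 immune and 12 housekeeping genes held none either. Over all genes the share was 2.54%. Genes of the lists differ in their number of regions, so members per 1000 regions are given too. They were 7.30 for the androgen response list, where all genes had 5.61. The other lists with members had 6.94 (luminal), 3.55 (basal), 34.5 (stromal and smooth muscle, 2 members in 58 regions), 2.80 (steroid receptors), 7.69 (interferon) and 2.73 (Wnt, Notch and Hedgehog).
At Il6, a cytokine gene, the genotype difference in other regions was 0.75 (adjusted p = 0.0361, exact permutation test). At Wnt4, a Wnt ligand gene, it was 0.88 (adjusted p = 0.0461), and it did not pass with lists of equal length (adjusted p = 0.188), within 25 kb (adjusted p = 0.506) or without SPOPmut_DHT library 4 (adjusted p = 0.0766), all by the exact permutation test. With DHT the other Wnt4 regions rose by 1.63 (adjusted p = 0.0296, exact permutation test), which is opposite to the member. Within 25 kb that difference was 0.13 and did not pass. Neither test passed at Zeb2, a mesenchymal repressor gene.
The Acta2 member, chr19:34254199-34255350, had −log10 p of 3.92, 3.47, 3.52 and 4.23. Its summits lay 364 to 395 bp downstream of a RefSeq start inside this smooth muscle actin gene. The stromal markers Col3a1, Pdgfra and Des had no peak at a gene end in any library, and Myh11 had one in 3. At Cd44, a basal cell adhesion receptor, the other regions exceeded Control by 4.00 (adjusted p = 0.00795, exact permutation test), and the difference was −1.26 after the chromosome's call rate was subtracted (adjusted p = 0.0867).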

How the data were processed

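ATAC-seq was measured in 16 libraries of mouse prostate organoids. Bowtie2 2.3.4.1, SAMtools 1.8, Genrich and the build mm10 are named in the submitters' processing notes, and the settings are not given in the sources used here. In the deposited lists, 1 for each library, every peak has a score capped at 1000, a signal that is the authors' own peak area, and a −log10 p. Peak lists without read counts were analysed, so depth is unknown.

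Peaks sharing at least 1 base were merged, and a region was called in a library whose peak overlapped it. Regions were assigned to the nearest protein-coding gene within 100 kb (RefSeq, GRCm38.p6), and "gene end" means within 1 kb of either end. Genes with at least 2 non-member regions called in at least 2 libraries entered the exact permutation tests. The tests were tested on simulated data. Python 3.11.15, NumPy 2.4.6, pandas 2.3.3, SciPy 1.17.1 and Matplotlib 3.10.9 were used.

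Named were the 8 members with the highest percentile, up to 10 genes with at least 2 members, up to 10 members at gene ends, list genes with members and up to 5 genes for each test and direction. The always named Spop, Foxa1 and Fkbp5 held no member, and some genes that the rule names are not reported here. Members and lists were chosen with earlier results of these data known. Alternatives were other thresholds, merging, assignment, chromosome correction, a replicate block and leaving out libraries.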

Additional observations from a re-analysis of the deposited data

Results flagged for a closer look

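In 84 groups of 4 libraries (list lengths, member −log10 p and other regions at named genes), the gap of the highest or lowest library to the nearest of the others was compared with the group's range. In 13 groups, all of them counts of other regions at 7 genes, it passed Dixon's critical value. Chance gives about 1 in 20 for continuous values, and whole-number counts pass it whenever 3 libraries agree and the fourth does not. At Esr1, Control_EtOH library 3 had 19 other regions (17 in the others), Control_DHT library 2 had 12 (14) and SPOPmut_EtOH library 3 had 19 (20). At Syne1, Control_EtOH library 2 had 12 (15) and SPOPmut_EtOH library 2 had 12 (13). Lrmda had 12 in Control_EtOH library 2 (16), and Rarb had 24 in the same library (27). Plcb1 had 5 in Control_DHT library 1 (4) and 19 in SPOPmut_EtOH library 2 (20). Krt18 had 2 in Control_DHT library 1 (1) and 5 in SPOPmut_EtOH library 1 (4), and Thsd4 had 2 in Control_DHT library 1 (1) and 12 in SPOPmut_EtOH library 3 (11).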

How the results depend on the processing

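The member count was 514 as reported, 66 with a signal of at least 400 required in the SPOPmut_EtOH lists, and 982 with calls in 3 of 4 libraries accepted. It was 460 to 586 with peaks under a signal of 300 dropped, lists of equal length, overlap of 50% or merging over 500 bp, and 514 to 717 with a library left out. The share of members at gene ends was 15.95% within 5 kb, against 30.03% of all regions. In the sets chosen in the same way it was 10.42% (Control_EtOH), 12.53% (Control_DHT) and 18.27% (SPOPmut_DHT). Member genes higher in SPOPmut (157) numbered 154 to 171 without single libraries, and lower ones (21) 19 to 31. Higher with DHT (12) were 10 to 16, and lower (30) 25 to 41. Genes lower in SPOPmut were 35 with lists of equal length (9.36%, against 15.7% of all genes). They were 12 of the 290 testable with assignment within 25 kb (4.14% against 10.9%), and 59 after chromosome correction (15.8% against 23.9%). With DHT, 4 of the 290 were higher within 25 kb (1.38%, against 4.97% of all genes) and 19 lower (6.55% against 2.09%). After chromosome correction 35 were higher with DHT (9.36% against 12.2%) and 77 lower (20.6% against 9.34%). Genes with at least 10 other regions were chosen after seeing the data. Of 171 such member genes, 76 were higher in SPOPmut (44.4%, against 29.3% of all such genes). With DHT 7 of the 171 were higher (4.09% against 9.95%). Without chromosomes 2 and 15, also chosen then, 108 of 292 member genes were higher in SPOPmut (36.99% against 16.03% of all genes). Over all genes, chromosome correction gave 2675 lower in SPOPmut (1362 before), and 1364 higher and 1045 lower with DHT (616 and 314 before). The genotype difference of Cd44 turned to −1.26 after that correction. Of 998 settings for named genes, 947 kept the side of the threshold, 43 lost the call, 7 gained one and 1 reversed. Direction was compared only where a call had passed, so differences that did not pass could change sign among the 947.

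With the replicate block, 99 member genes were higher (26.5%; all genes 9.85%) and 13 lower (3.48%; all genes 6.28%) in SPOPmut, and 0 higher and 0 lower with DHT. The block leaves 256 arrangements, so fewer p-values can pass. The genotype adjusted p of the exact permutation test was then 0.0979 at Ell2 and Il6, 0.0639 at Ndrg1 and 0.159 at Wnt4. Whether the numbers pair the libraries was not settled. Correlations of same-numbered deviations were −0.110 to 0.0973 (median 0.0129), and those of differently numbered ones −0.123 to 0.163 (median −0.00369). The same number was the best match in 12 of 24 comparisons. Read depth limits which weak peaks are called and could not be measured here.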
